A study of Arabidopsis thaliana with 28 samples.

Results

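The transposable elements (TEs) described here are those already counted as expressed in wild-type Arabidopsis thaliana seedlings. A TE was a member if it had at least 20 read counts in each of the 3 Col-0 libraries of the deposited TE count table. This held for 872 of 31189 TEs (2.8%), of which 209, 152, 178, 124 and 209 lie on chromosomes 1 to 5 by their identifiers. Members were thus selected on their Col-0 counts, so their wild-type levels are given as a description. Of the other TEs, 4358 had at least 1 count in Col-0 without reaching the threshold and are called weak, and 25959 had no count there and are called silent.

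Most plant TEs are kept silent by DNA methylation and by histone marks, and a minority are transcribed in healthy tissue. HDA6 is a histone deacetylase that works with DNA methylation in TE silencing, and HDA9 is a related deacetylase better known for its part in flowering and leaf ageing. H2A.Z is a histone variant that sits around the start of genes and is scarce over heavily methylated TEs. Some TE-derived sequences have become ordinary genes, such as the MUSTANG genes, which encode domesticated transposases, and some short retroposons, such as Sadhu elements, vary in expression between Arabidopsis strains.

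All plants were seedlings sampled 12 days after germination, following 4 days of cold at 4 °C, and grew in long days at about 21 °C. On soil grew 6 genotypes with 3 libraries each. They were the wild type Col-0 (Columbia-0), the triple mutant line h2a.z-5 (a frameshift allele of HTA8 with SALK_054814 and SALK_017235), hda6-1 (SALK_201895C), hda9-1 (SALK_007123), and h2a.z-5 combined with either, hda6-1 h2a.z-5 or hda9-1 h2a.z-5. The groups Mock and TSA, 5 libraries each, were Col-0 grown in MS medium with 1% sucrose, with the deacetylase inhibitor trichostatin A (TSA) in the latter, and for them gene counts were used. No label says how many independent lines stand behind a mutant name, and the replicates are described as independent biological ones. Leaf genes such as RBCS1A, which encodes a Rubisco subunit, stood at 30026 CPM in Col-0, while of 3 root markers EXPA7 and RHD6 had no count in any genotype and COBL9 averaged 0.0794 CPM in Col-0, with group means from 0.0507 CPM in hda9-1 to 0.314 CPM in the libraries labelled hda6-1. The pollen and seed markers were at or near 0. The floral organ genes AP3 and AG were low but differed between groups: AP3 averaged 1.47 CPM in h2a.z-5 against 0.245 CPM in the wild type and 0.0546 CPM in the libraries labelled hda6-1, and AG averaged 1.72 CPM in Col-0 and 0.273 to 1.004 CPM in the mutants. Their part in the TE values was not tested.

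Levels are given as CPM, which scales TE counts to the library's gene counts with TMM factors of the gene table. Gene counts summed to 32795474 to 39633678 per genotype library and TE counts to 300951 to 484606. A TE was called changed at an edgeR quasi-likelihood p under 0.05 after Benjamini-Hochberg adjustment over all 1895 TEs tested, which is the "edgeR adjusted p" below. All 872 members passed the filter on low counts through Col-0 itself. The tested weak TEs (911) and silent TEs (112) include those that could pass the filter through a mutant alone and then had to differ, so the share called among all TEs tested is a background with that limit.

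Some libraries stood apart. The TE counts of hda6-1 replicate 1 stop at AT4TE59920. Of the 7134 TEs that follow it, 237 of them members, 0 were counted in that library and 1119 and 1120 in replicates 2 and 3. That library was left out of the TE results, which leaves 2 libraries in its group. HDA6 transcript did not follow the labels: it was at 16.7 ± 3.40 CPM (SD, n = 3) in Col-0, 128.6 ± 28.3 CPM in the libraries labelled hda6-1 and 16.9 ± 1.07 CPM in those labelled hda6-1 h2a.z-5, so both groups are named by their labels. The H2A.Z gene HTA11 averaged 61.4 CPM in the wild type and between 1.04 and 2.71 CPM in the 3 groups with h2a.z-5. The other H2A.Z genes kept more transcript in those groups, with HTA9 at 44.0 to 57.9 CPM against 144.0 CPM in the wild type and HTA8 at 3.78 to 8.56 CPM against 16.9 CPM. HDA9 averaged 13.9 CPM in the wild type against 1.62 and 1.01 CPM in the 2 groups with hda9-1. In hda9-1 h2a.z-5, replicate 3 had the largest scaling factor (1.19) and the lowest summed member level.

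Members spanned a wide range of wild-type levels. Their mean in Col-0 ran from 0.585 to 927 CPM with a median of 2.70 CPM. The 5 TEs of highest level held 23.8% of the summed level, and 36 members held 50%. AT2TE18115 came first, with 1259, 774 and 747 CPM in the 3 Col-0 libraries, followed by AT4TE59630 with 590.3, 782 and 530.3 CPM. AT4TE67650, AT3TE95080 and AT5TE72200 had means of 179, 178 and 156 CPM, and AT5TE72200 was counted almost as the protein-coding gene AT5G49440. At the threshold, 20 members had a lowest Col-0 count of 20 and a median group mean of 26.5 counts, and the 7 TEs just outside had a lowest count of 19 and a median of 23.7.

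Nearly all TE reads in Col-0 fell on these members, and that share was lower in every library where hda6-1 was in the label. Members held 95.7% to 96.2% of the TE counts in the Col-0 libraries, 81.8% and 82.6% in the 2 libraries labelled hda6-1, and 90.0% to 92.9% in those labelled hda6-1 h2a.z-5. The share was 95.7% to 96.0% in h2a.z-5, 94.99% to 95.4% in hda9-1 and 93.4% to 95.9% in hda9-1 h2a.z-5. The summed member level was 8697 ± 397 CPM in Col-0 and 10888 ± 717 CPM (SD, n = 2) in the libraries labelled hda6-1, where weak TEs summed to 1994 CPM against 360 CPM and silent TEs to 363 CPM against 0. Without the 5 highest TEs, the summed member level was 6623 ± 298 CPM in Col-0 and 7984 ± 409 CPM in those libraries. These sums were not tested. The rule chose members by high Col-0 counts, which favours a high share there, and the 0 of silent TEs in Col-0 holds by definition. In RNA pooled over the cells of a seedling sample, more cells with a transcript and more RNA per cell cannot be told apart.

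**Figure D1:**
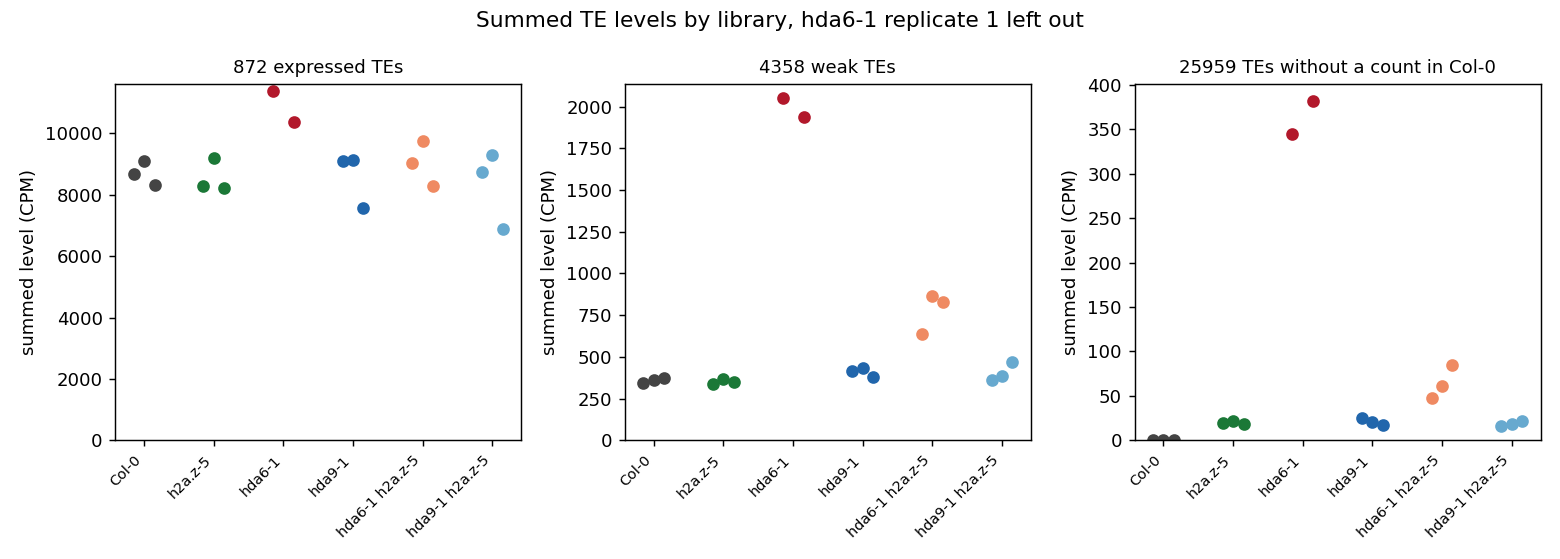
Summed level in CPM (vertical axis) of the 872 expressed, 4358 weak and 25959 silent TEs in each of 17 libraries (points), by genotype. The 2 libraries labelled hda6-1 are highest in each panel, and expressed TEs in hda9-1 h2a.z-5 replicate 3 are lowest at 6888 CPM.

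Most members were not called in any contrast with Col-0. In the fit without a replicate block, 780 of the 872 were called in none of the 5 contrasts with Col-0, 49 in 1, 26 in 2, 12 in 3 and 5 in 4, and 11 were higher in one genotype and lower in another. With the block fewer than 780 would be called in none, since it gave 129 called members in hda9-1 h2a.z-5 alone. Without it 92 were called in at least 1 of the 5 contrasts. These tallies were not made with the block. Over the 17 libraries the highest was under 2 times the lowest for 192 members and over 10 times, or with a library at 0, for 38. The 5 steadiest were AT5TE70420, AT5TE16840, AT1TE85290, AT5TE14570 and AT5TE35160. Of these, AT1TE85290 was counted almost as the protein-coding gene AT1G69250. AT5TE70420 stood between 6.09 and 7.90 CPM in all 17 libraries, with group means from 6.44 to 7.23 CPM.

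**Figure D2:**
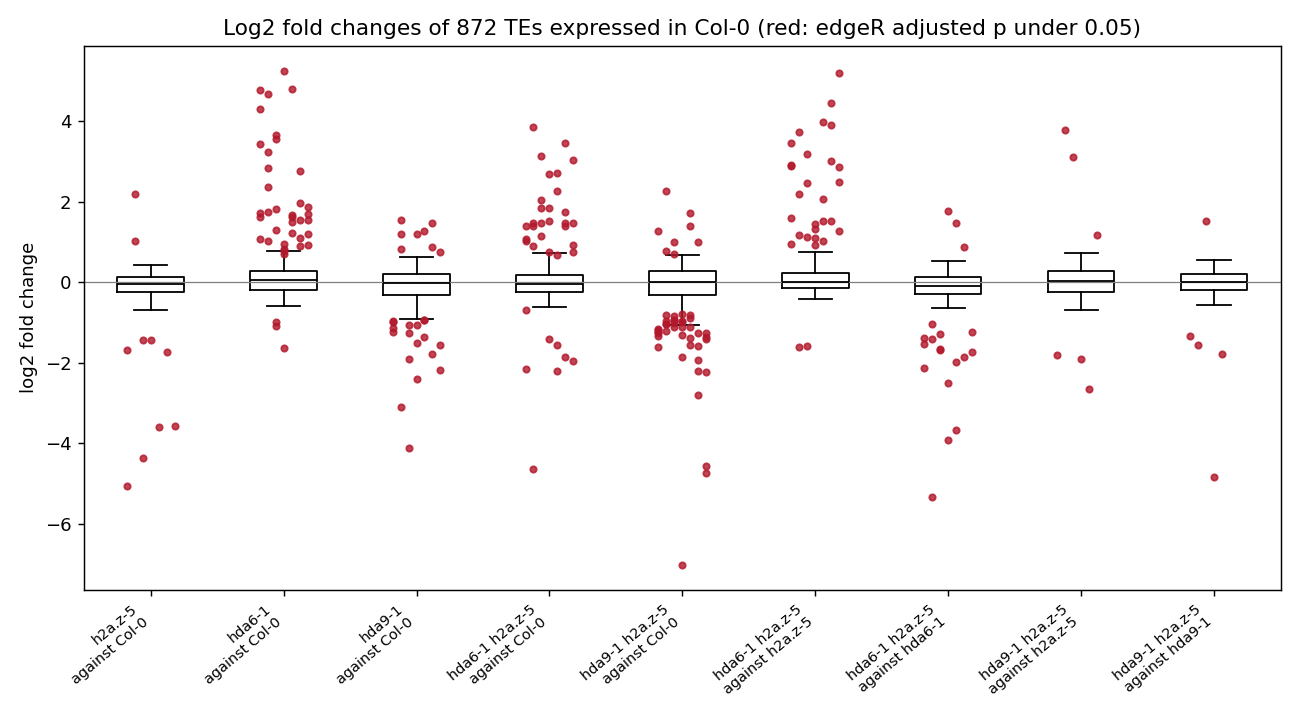
Log2 fold changes (vertical axis) of the 872 expressed TEs in 9 contrasts. Boxes span the quartiles, whiskers the middle 90% of members, and red points are members with edgeR adjusted p under 0.05. The boxes centre near 0 in every contrast, and called members in hda6-1 lie mostly above it.

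The contrasts with Col-0 use the same Col-0 libraries that chose the members, so a member near the threshold may have been taken in for a high draw there, and all 5 share those libraries. The 4 contrasts between mutants use no Col-0 value. Scaling mattered for the libraries labelled hda6-1. The median log2 change of members against Col-0 was 0.04, and it became -0.08 with plain gene-table totals and -0.10 with TMM on the TE table, shifts over all TEs tested of -0.12 and -0.13. For hda6-1 h2a.z-5 against hda6-1 the corresponding shifts were 0.15 and 0.12.

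In h2a.z-5, 2 members rose and 8 fell. This is 1.15% of the members, near the 0.95% of all TEs tested, among which falls (0.633%) also outnumbered rises (0.317%). The falls were deep for 4 of them: AT2TE20630, AT4TE03410, AT3TE46170 and AT3TE62065. The count was 5 without Col-0 replicate 2, 6 without Col-0 replicate 1 or h2a.z-5 replicate 3, and 23 (5 higher, 18 lower) with replicate number as a block.

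AT4TE03410 had counts nearly equal to those of SADHU5-1 (AT4G01525), a Sadhu retroposon. It was at 22.1, 30.8 and 34.3 CPM in Col-0 and at 0.874, 2.05 and 1.28 CPM in h2a.z-5. It also lay low in hda9-1, at 9.39, 5.45 and 4.37 CPM, and lowest in hda9-1 h2a.z-5, at 0.284, 0.309 and 0.0851 CPM. These 3 groups overlapped neither Col-0 nor one another. In the libraries labelled hda6-1 it stood at 41.6 and 36.9 CPM, and in those labelled hda6-1 h2a.z-5 at 19.8, 31.2 and 15.2 CPM, a range that overlaps Col-0. The log2 fold change was -4.37 (SE 0.41, edgeR adjusted p = 4.28e-06) in h2a.z-5, -2.18 (SE 0.37, edgeR adjusted p = 0.00371) in hda9-1 and -7.02 (SE 0.49, edgeR adjusted p = 7.65e-08) in hda9-1 h2a.z-5. Between mutants, with no Col-0 library, it was 4.84 log2 units lower in hda9-1 h2a.z-5 than in hda9-1 (log2 fold change -4.84, edgeR adjusted p = 2.13e-05). Against h2a.z-5 the log2 difference was -2.65 (edgeR adjusted p = 0.00717), and it missed the threshold without h2a.z-5 replicate 2 or hda9-1 h2a.z-5 replicate 3 (edgeR adjusted p up to 0.0558). With the replicate block this difference had edgeR adjusted p = 0.00660.

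AT3TE46170, whose counts nearly equalled those of the pseudogene AT3G29120, was low in h2a.z-5 and in no combination with it. Its 3 values in h2a.z-5 were 0.307, 0.622 and 0.480 CPM. The Col-0 libraries had 5.75, 6.57 and 4.78 CPM, those labelled hda6-1 h2a.z-5 had 5.77, 9.35 and 5.99 CPM, and hda9-1 h2a.z-5 had 6.48, 7.35 and 5.66 CPM. The lowest of the other 14 libraries, in hda9-1, had 4.56 CPM. Its log2 fold change in h2a.z-5 was -3.60 (SE 0.30, edgeR adjusted p = 9.17e-07), and against h2a.z-5 it was higher by 3.90 log2 units in hda6-1 h2a.z-5 (edgeR adjusted p = 2.84e-07) and by 3.79 in hda9-1 h2a.z-5 (edgeR adjusted p = 8.68e-07).

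AT2TE20630 and AT3TE62065 are TEs of low level that were near 0 in several mutants. AT2TE20630 had 33, 26 and 47 counts in Col-0 and 3 counts over the 3 h2a.z-5 libraries, 37.4 times less relative to library size with a 95% counting interval of 12.5 to 184 (edgeR adjusted p = 2.45e-05). It had 3, 1 and 2 counts in hda9-1 and 1, 2 and 1 in hda9-1 h2a.z-5, but 53 and 54 in the libraries labelled hda6-1. AT3TE62065 was at 0.743, 1.16 and 0.632 CPM in Col-0, at 0.0708, 0.130 and 0 CPM in h2a.z-5 and at 3.55 and 2.38 CPM in the libraries labelled hda6-1. Its log2 fold change in h2a.z-5 was -3.58 (SE 0.62, edgeR adjusted p = 0.00591). Both were thus below every Col-0 library in h2a.z-5, hda9-1 and hda9-1 h2a.z-5. AT2TE20630 was also below every Col-0 library in the group labelled hda6-1 h2a.z-5 (log2 fold change -1.86, edgeR adjusted p = 0.00271). Against the libraries labelled hda6-1 that group had a log2 difference of -2.51 for AT2TE20630 (edgeR adjusted p = 0.000389).

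The 2 rises in h2a.z-5 were AT2TE22815 and AT3TE94195. AT2TE22815 was at 4.63, 7.95 and 7.39 CPM against 1.14, 1.32 and 1.92 CPM in Col-0, and at 9.38 to 13.8 CPM in all 5 libraries with hda6-1 in the label. The log2 fold change in h2a.z-5 was 2.18 (edgeR adjusted p = 0.00927), and without Col-0 replicate 1 or 2 the p rose to as much as 0.0715. With the replicate block the edgeR adjusted p was 0.00516. AT3TE94195 was at 9.99, 9.27 and 12.5 CPM against 5.52, 4.12 and 5.97 CPM in Col-0 (edgeR adjusted p = 0.00904, up to 0.0703 without Col-0 replicate 2 or h2a.z-5 replicate 3). With the replicate block its edgeR adjusted p in h2a.z-5 was 0.00296. In hda9-1 the same TE was lower than in Col-0, at 2.88, 2.54 and 2.75 CPM, and adding h2a.z-5 to hda9-1 gave 8.16, 7.76 and 7.29 CPM, a log2 difference of 1.51 (edgeR adjusted p = 0.000654).

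**Figure D3:**
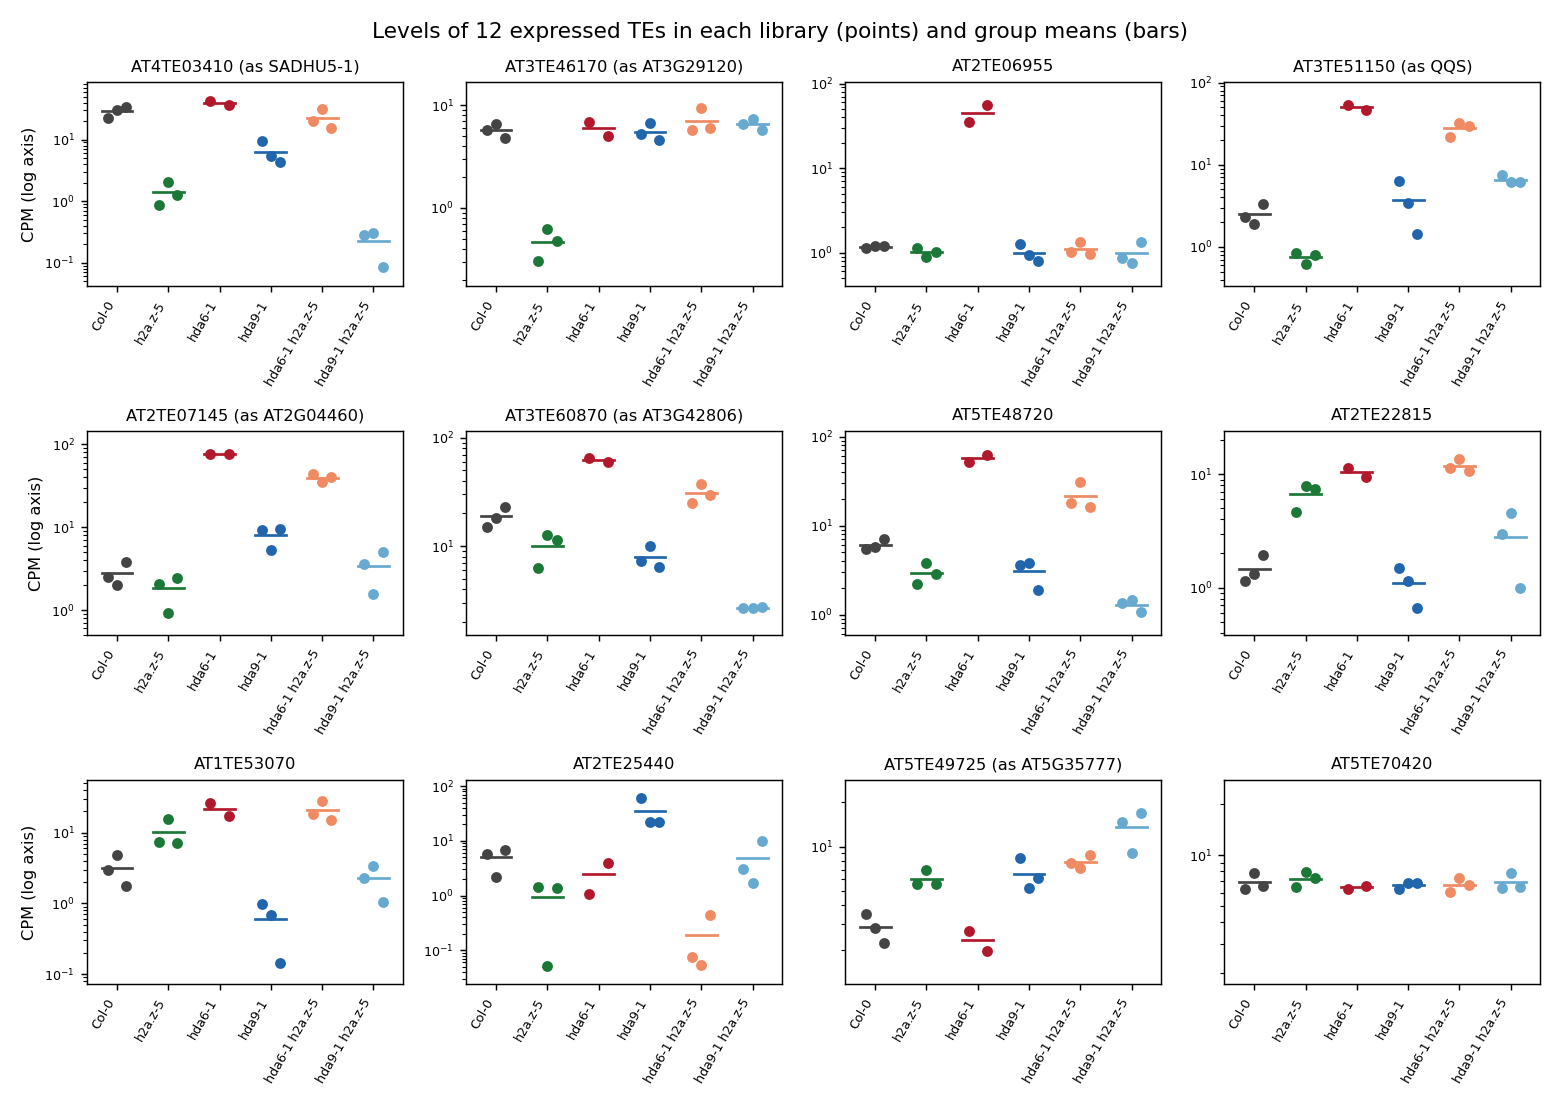
CPM (log axis) of 12 expressed TEs in each of 17 libraries (points) with group means (bars), by genotype. AT4TE03410 is low in h2a.z-5, hda9-1 and hda9-1 h2a.z-5, AT3TE46170 in h2a.z-5, and AT2TE06955 is high in the libraries labelled hda6-1. The last panel shows AT5TE70420, the steadiest member.

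In the libraries labelled hda6-1, 36 members rose and 3 fell. The 36 are 4.13% of the members, beside 17.9% of all TEs tested, and the 3 are 0.344%, beside 0.528%. Among silent TEs that could be tested, which mostly passed the filter through these libraries, 109 of 112 were called higher. The median rise of the 36 was 1.69 log2 units. The count was 25 without hda6-1 replicate 2, a fit in which 1 library stands for hda6-1 and is assumed to vary like the other groups, and 71 (60 higher, 11 lower) with the replicate block. Scaled by TMM over TEs instead, 26 rose and 8 fell.

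The largest rises, all from low wild-type levels, were in AT2TE06955, AT2TE07145, AT4TE04415, AT4TE09845, AT3TE51150 and AT1TE29570. AT2TE06955 was at 1.14, 1.19 and 1.21 CPM in Col-0 and 34.7 and 55.5 CPM in the libraries labelled hda6-1 (log2 fold change 5.25, SE 0.29, edgeR adjusted p = 1.64e-09). AT2TE07145, counted almost as the pseudogene AT2G04460, went from 2.53, 1.98 and 3.79 to 77.2 and 75.9 CPM (log2 fold change 4.78, edgeR adjusted p = 3.52e-07). In hda6-1 replicate 1, for which gene counts are complete, AT2G04460 was at 136.6 CPM.

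AT3TE51150 had the counts of QQS (AT3G30720), a gene found in Arabidopsis alone that affects how leaves divide carbon between starch and protein. It was at 2.30, 1.89 and 3.36 CPM in Col-0, at 53.8 and 46.4 CPM in the libraries labelled hda6-1, and QQS was at 37.0 CPM in hda6-1 replicate 1. The group labelled hda6-1 h2a.z-5 had 21.6, 32.5 and 29.5 CPM, and h2a.z-5 had 0.850, 0.622 and 0.801 CPM, below every Col-0 library. The rise in hda6-1 was 4.31 log2 units (SE 0.41, edgeR adjusted p = 4.82e-07). The fall in h2a.z-5 had edgeR adjusted p = 0.0472, and it missed the threshold without any 1 of the 6 libraries compared (up to 0.249) and with TMM on the TE table. With the replicate block that fall had edgeR adjusted p = 0.0369. In hda9-1 h2a.z-5 QQS was at 7.46, 6.11 and 6.17 CPM. There AT3TE51150 was above every Col-0 library (log2 fold change 1.39, edgeR adjusted p = 0.0394). That call too was lost without any 1 of the 6 libraries compared (up to 0.149), and with the replicate block it had edgeR adjusted p = 0.0220. Against h2a.z-5 the log2 difference was 3.12 (edgeR adjusted p = 0.000271).

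AT4TE04415 went from 1.14, 1.89 and 0.834 CPM in Col-0 to 36.7 and 33.1 CPM in the libraries labelled hda6-1, and AT4TE09845, counted almost as the pseudogene AT4G04293, from 1.31, 0.912 and 1.62 to 30.5 and 35.3 CPM. AT1TE29570, counted almost as the non-coding RNA gene AT1G26558, went from 0.570, 0.849 and 0.632 to 8.19 and 8.91 CPM. In each of these 3 the groups did not overlap, with edgeR adjusted p from 8.16e-08 to 4.67e-07. The 3 falls were smaller: AT4TE42860 (log2 fold change -1.63), AT4TE10620 (-1.09) and AT2TE38580 (-1.0025). In the fit with replicate 3 as the lone hda6-1 library, its spread taken from the other groups, AT4TE42860 missed the threshold (edgeR adjusted p = 0.0950).

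A run of 3 TEs that follow each other in identifier order, AT5TE48715, AT5TE48720 and AT5TE48725, moved together, and neighbours may share reads of 1 transcript. AT5TE48725, the highest of them, was at 14.9, 18.3 and 16.7 CPM in Col-0 and 191 and 197 CPM in the libraries labelled hda6-1. It was at 64.5, 107.8 and 67.2 CPM in those labelled hda6-1 h2a.z-5 and at 7.85, 7.06 and 5.93 CPM in hda9-1 h2a.z-5. The libraries with hda6-1 in the label were above every Col-0 library and those of hda9-1 h2a.z-5 below. The log2 rise in hda6-1 was 3.43, 3.24 and 3.55 for the 3 TEs in identifier order, and the change in hda9-1 h2a.z-5 was -1.93, -2.22 and -1.26, called in each.

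AT3TE60870, counted almost as the pseudogene AT3G42806, had a similar order of levels. It was at 15.03, 18.3 and 23.0 CPM in Col-0, 65.4 and 59.8 CPM in the libraries labelled hda6-1 and 25.2, 37.4 and 29.4 CPM in those labelled hda6-1 h2a.z-5. In hda9-1 h2a.z-5 it was at 2.69, 2.66 and 2.76 CPM, below all other groups (log2 fold change against Col-0 -2.80, SE 0.27, edgeR adjusted p = 6.77e-06). Against h2a.z-5 that is a log2 difference of -1.90 (edgeR adjusted p = 0.000581) and against hda9-1 one of -1.56 (edgeR adjusted p = 0.00639, and 0.0544 without hda9-1 h2a.z-5 replicate 1). With the replicate block the difference against hda9-1 had edgeR adjusted p = 0.000666.

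**Figure D4:**
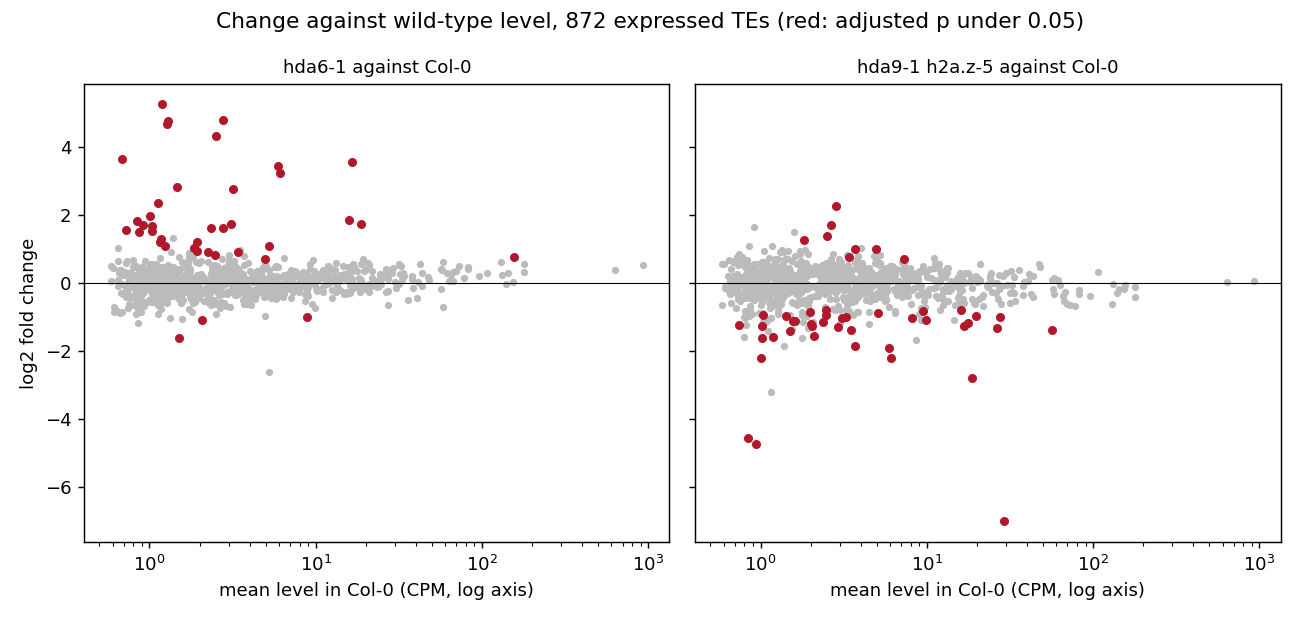
Log2 fold change (vertical axis) against the mean Col-0 level in CPM (horizontal, log axis) of the 872 members, for hda6-1 and hda9-1 h2a.z-5, with called members in red. The 36 members higher in hda6-1 had a median Col-0 level of 1.93 CPM and the 39 lower in hda9-1 h2a.z-5 one of 2.90 CPM, beside 2.70 CPM over all members.

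In hda9-1, falls outnumbered rises. Of the members, 8 rose and 18 fell (0.917% and 2.06%), beside 0.844% and 1.27% of all TEs tested, or 2.98% beside 2.11% in either direction. The number called depended on single libraries: it was 4 without hda9-1 replicate 3, 9 without hda9-1 replicate 1, 11, 12 and 14 without Col-0 replicates 3, 1 and 2, and 16 without hda9-1 replicate 2. With the replicate block the count was 94 (31 higher, 63 lower), and with plain gene-table totals it was 7 higher and 28 lower. AT1TE42250 fell from 3.71, 2.55 and 4.78 CPM in Col-0 to 1.49, 0.667 and 0.807 CPM (log2 fold change -1.90, SE 0.32, edgeR adjusted p = 0.00371) and was called in each of the 6 fits without 1 of these libraries. AT1TE53070 was at 0.977, 0.694 and 0.142 CPM against 2.92, 4.87 and 1.77 CPM in Col-0 (edgeR adjusted p = 0.0359). It missed the threshold without Col-0 replicate 1 or 2 or hda9-1 replicate 2 or 3 (up to 0.144). With the replicate block its edgeR adjusted p was 0.000513.

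Rises in hda9-1 included AT2TE07145 (log2 fold change 1.54, edgeR adjusted p = 0.0454), AT1TE88535 (1.48, edgeR adjusted p = 0.0149) and AT1TE29570 (1.18, edgeR adjusted p = 0.0459). Each of these missed the threshold in some fits without 1 library (up to 0.203). With the replicate block their edgeR adjusted p was at most 0.0139. AT5TE58950 and AT5TE49725 also rose. AT5TE58950, counted almost as LHT1 (AT5G40780), which encodes an amino acid transporter, was at 19.1, 15.1 and 13.9 CPM against 5.92, 5.38 and 8.49 CPM in Col-0. Its groups did not overlap, but its edgeR adjusted p of 0.0346 rose to as much as 0.144 without Col-0 replicate 1 or 2 or any 1 hda9-1 library. With the replicate block its edgeR adjusted p was 0.00969. AT5TE49725, counted almost as the pseudogene AT5G35777, was at 8.38, 5.23 and 6.10 CPM in hda9-1 and 14.6, 9.13 and 16.9 CPM in hda9-1 h2a.z-5, against 3.49, 2.83 and 2.22 CPM in Col-0. The log2 fold change was 1.20 in hda9-1 (edgeR adjusted p = 0.0149, up to 0.0907 without Col-0 replicate 2 or 3 or hda9-1 replicate 1 or 3) and 2.25 in hda9-1 h2a.z-5 (edgeR adjusted p = 5.14e-05). The call in hda9-1 had edgeR adjusted p = 0.00597 with the replicate block. AT2TE25440 and AT2TE25295 were at 21.7 to 60.6 CPM in all hda9-1 libraries, above every library of the other genotypes, but their spread within groups was wide and neither was called in hda9-1.

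In the group labelled hda6-1 h2a.z-5, 27 members rose and 8 fell against Col-0 (3.10% and 0.917%), beside 11.9% and 0.686% of all TEs tested. With the replicate block the count was 68 (45 higher, 23 lower). AT2TE07145 was at 43.4, 35.4 and 40.6 CPM (log2 fold change 3.84, SE 0.41, edgeR adjusted p = 5.73e-06). AT1TE53070, low in hda9-1, was at 18.5, 28.4 and 14.9 CPM here (log2 fold change 2.70, edgeR adjusted p = 0.00136) and at 26.4 and 16.9 CPM in the libraries labelled hda6-1. AT2TE25440 had the largest fall, from 5.82, 2.14 and 6.93 CPM to 0.0740, 0.0528 and 0.447 CPM (log2 fold change -4.64, SE 1.0, edgeR adjusted p = 0.00369). AT3TE39260 was called lower in all 3 groups that carry h2a.z-5. It was at 2.70, 3.49 and 3.03 CPM in Col-0 and between 0.799 and 1.66 CPM in those 9 libraries, with no overlap.

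The same libraries against h2a.z-5, a contrast free of Col-0 values, had 27 members higher and 2 lower (3.33%), beside 11.6% of all TEs tested (11.4% higher, 0.211% lower). The largest differences were in AT3TE51150 (log2 5.19, SE 0.43, edgeR adjusted p = 5.72e-07), AT2TE07145 (log2 4.45), AT4TE03410 (log2 3.98) and AT3TE46170. Against the libraries labelled hda6-1, 3 members were higher and 16 lower (2.18%), beside 0.686% and 11.2% of all TEs tested. This split was 7 and 13 with plain gene-table totals, and 7 and 15 with TMM over TEs. The count was 39 with the replicate block, and 12 without hda6-1 replicate 3, again with 1 hda6-1 library whose spread comes from the other groups. Of the 36 members that rose in hda6-1, 11 were among the 16 and none was higher; since they were picked for high values in hda6-1, this carries no test.

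AT2TE06955 and AT4TE04415 showed the widest gaps between the 2 groups with hda6-1 in the label. AT2TE06955 was at 1.01, 1.35 and 0.964 CPM in the group labelled hda6-1 h2a.z-5, within or close to the Col-0 range, against 34.7 and 55.5 CPM in those labelled hda6-1 (log2 difference -5.35, SE 0.29, edgeR adjusted p = 2.56e-09). AT4TE04415 was at 3.06, 2.27 and 1.60 CPM against 36.7 and 33.1 CPM (log2 difference -3.92, SE 0.36, edgeR adjusted p = 1.42e-06). HDA6 transcript differed between the same groups by a log2 difference of -2.92, and its part in these values was not tested. In the other direction, AT5TE88180 was at 3.65, 4.46 and 3.88 CPM against 1.47 and 1.44 CPM in hda6-1 (log2 difference 1.46, edgeR adjusted p = 0.000135).

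In hda9-1 h2a.z-5, 8 members rose and 39 fell against Col-0 (0.917% and 4.47%), beside 1.27% and 2.64% of all TEs tested, or 5.39% beside 3.91% in either direction. With plain gene-table totals 13 rose and 36 fell, and with DESeq2 21 rose and 56 fell. The median fall of the 39 was -1.25 log2 units, and in the contrasts with Col-0, which share its libraries, the same 39 had medians of -0.91 in hda9-1, -0.56 in h2a.z-5 and 0.19 in hda6-1. The count was 16 without Col-0 replicate 3, 23 without Col-0 replicate 1, 31 without Col-0 replicate 2, and 24 and 22 without hda9-1 h2a.z-5 replicates 1 and 3. With the replicate block it was 129 (36 higher, 93 lower). No blocked share of all TEs tested stands beside this count. After AT4TE03410, AT2TE20630, AT3TE62065 and AT3TE60870, the next largest falls were in AT5TE48720 and AT2TE08225. AT2TE08225 was at 0.336, 0.0516 and 0.255 CPM against 0.867, 0.974 and 1.19 CPM in Col-0 (log2 fold change -2.21, edgeR adjusted p = 0.00688), and its neighbour in identifier order, AT2TE08220, was also called lower.

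Among the 8 rises in hda9-1 h2a.z-5, that of AT5TE49725 described above was followed by smaller ones. AT3TE78350 was at 9.79, 10.03 and 10.04 CPM against 4.95, 5.31 and 4.65 CPM in Col-0 (log2 fold change 1.00, SE 0.18, edgeR adjusted p = 0.00528). Against h2a.z-5, 3 members were higher and 3 lower, 0.688% beside 0.792% of all TEs tested, and against hda9-1, 1 was higher and 4 lower (0.573%), beside 0.475%. With the replicate block these counts were 50 and 16. Against h2a.z-5 it was 13 without hda9-1 h2a.z-5 replicate 2 and 3 without its replicate 3. Against hda9-1 it was 9 without hda9-1 h2a.z-5 replicate 3, 8 without hda9-1 replicate 1 and 2 without hda9-1 h2a.z-5 replicate 1, and 2 were higher and 2 lower with plain gene-table totals.

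For 3 members the values of the groups labelled hda6-1, h2a.z-5 and hda6-1 h2a.z-5 departed from additivity on the log2 scale, beside 0.528% of all TEs tested. HDA6 transcript was at the wild-type level in the group labelled hda6-1 h2a.z-5 and not in hda6-1, so these departures cannot be told apart from a difference between the hda6-1 lines. They were AT2TE06955 (log2 departure from additivity -5.12, SE 0.38, edgeR adjusted p = 2.09e-07), AT3TE46170 (3.84, SE 0.41, edgeR adjusted p = 3.09e-05) and AT4TE03410 (3.54, SE 0.56, edgeR adjusted p = 0.00293). The count was 6 with the replicate block. For hda9-1 and h2a.z-5 it was 1, AT3TE46170 (log2 departure 3.84, SE 0.38, edgeR adjusted p = 1.68e-05), beside 0.106% of all TEs tested, and it was 2 without hda9-1 replicate 1 or 3.

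A number of members carried the counts of an annotated gene. For 66 of the 872, a gene of the same chromosome had counts that agreed over the 17 libraries more closely than independent counts would, and at the same limit no gene of another chromosome did. The overlap rests on the counts, not on coordinates. It finds only TEs whose counts nearly equal those of a whole gene, here 93.9% to 109.3% of them. A TE within part of a longer expressed gene would not match. Whether reads of the unmatched members, AT2TE18115 among them, come from such genes was not tested. The reference annotates 48 of the 66 genes (72.7%) as pseudogenes, a type that makes up 10.7% of the gene table. It annotates 16 as protein coding and 2 as non-coding RNA. The pseudogene type includes TE-derived genes such as SADHU5-1, CYTOSLEEPER and MUG1. A TE matched to its own gene model can thus fall in it, and no result is read from the higher share. The TE of such a pair cannot be told apart from the gene. Of the 66, 13 rose in the libraries labelled hda6-1 (19.7%) and none fell. Rises there were 4.13% over all members and 17.9% over all TEs tested. In h2a.z-5 none rose and 5 fell (7.58%, beside 0.633% of all TEs tested). In hda9-1 4 rose and 4 fell (6.06% each, beside 0.844% and 1.27%). The group labelled hda6-1 h2a.z-5 had 12 rises and 1 fall (18.2% and 1.52%, beside 11.9% and 0.686%). In hda9-1 h2a.z-5 3 rose and 5 fell (4.55% and 7.58%, beside 1.27% and 2.64%).

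The TEs counted as domesticated transposase genes stood at similar levels in all genotypes. Most of these genes carry a pseudogene annotation in the reference table. They were MUG1, MUG2, MUG4, MUG5, MUG6, MUG7 and MUG8. AT3TE05245, counted as MUG1, was at 19.8, 10.7 and 15.04 CPM in Col-0, and over the other groups its libraries ranged from 10.3 to 21.1 CPM. Log2 differences over the 7 TEs and 11 contrasts lay between -0.38 and 0.37, with a smallest edgeR adjusted p of 0.515 and no unadjusted p under 0.05 among the 77. Of 3 Sadhu members, SADHU5-1 is described above. The SADHU4-1 TE, AT5TE39795, was at 10.0046, 15.6 and 18.2 CPM in Col-0 and 5.64, 6.59 and 7.95 CPM in hda9-1, and the SADHU1-2 TE, AT1TE35415, was at 12.2 to 17.9 CPM in all 17 libraries. Neither of these was called in any of the 11 contrasts. AT1TE17030, counted as CYTOSLEEPER, a transposase-derived gene, rose by 1.08 log2 units in the libraries labelled hda6-1 (edgeR adjusted p = 0.0213) and by 1.47 in those labelled hda6-1 h2a.z-5 (edgeR adjusted p = 0.00185).

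The Mock and TSA libraries, which did not choose the members, gave a separate look at these 66 genes. Their gene counts came from a table of their own, so levels are not set against those of the genotypes. AT1G26558, AT3G15310 and AT4G04293 did not pass the filter. Of the 63 genes that did, 5 rose and 25 fell with TSA (47.6%), beside 18.5% and 16.7% of all 20167 genes tested. Their median log2 change was -0.34 and that of all genes -0.07. The count was between 23 and 35 without 1 library. With the replicate block 9 rose and 25 fell: ELF4-L3, SUR1, LHT1 and DCI1 were then called higher, and AT3G29120 (edgeR adjusted p = 0.0506) and AT5G27250 (edgeR adjusted p = 0.0654) were no longer called. Without Mock replicate 5 also 9 rose.

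SADHU5-1 rose with TSA, from 10.3, 12.3, 16.4, 15.5 and 13.9 CPM in Mock to 107.3, 42.6, 94.1, 97.3 and 54.9 CPM (log2 fold change 2.53, SE 0.28, edgeR adjusted p = 0.000154), with no overlap between groups. AT2G06950 rose from a median of 69.3 CPM to one of 476 CPM (log2 fold change 2.63, SE 0.43, edgeR adjusted p = 0.00108), though TSA replicate 5 was at 89.6 CPM. AT4G20730, AT3G10100 and AT3G43690, all annotated as pseudogenes, were the other 3 that rose.

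Of the 13 matched genes whose TEs rose in the libraries labelled hda6-1, 10 were tested with TSA: 7 fell, 1 rose (AT4G20730, log2 fold change 2.29) and 2 were not called. Falls were called for 25 of the 63 matched genes tested, which include these 10, and for 16.7% of all genes tested. AT2G04460 was at 12.1 to 21.1 CPM in all 5 Mock libraries and at 0.0634 to 0.356 CPM in TSA (log2 fold change -6.36, SE 0.42, edgeR adjusted p = 1.28e-05), with no overlap. QQS was at 3.25, 1.40, 3.01, 1.84 and 2.69 CPM in Mock and at 0.641, 0.729, 0.495, 0.852 and 0.759 CPM in TSA (log2 fold change -1.80, SE 0.30, edgeR adjusted p = 0.00121), again without overlap. AT3G42806 also fell (log2 fold change -1.42, edgeR adjusted p = 0.00235). AT5G35777, whose TE rose in hda9-1 h2a.z-5, was at 0.909 to 2.36 CPM in Mock and had no count in 3 of the 5 TSA libraries (edgeR adjusted p = 0.00178). Among the domesticated transposase genes MUG8 fell (log2 fold change -1.23, edgeR adjusted p = 0.00105), while the other 6 had log2 changes of -0.29 to 0.35 and were not called. TSA was given to Col-0 plants, and the growth medium differs between the tables, so the responses are set side by side and were not compared by a test.

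**Figure D5:**
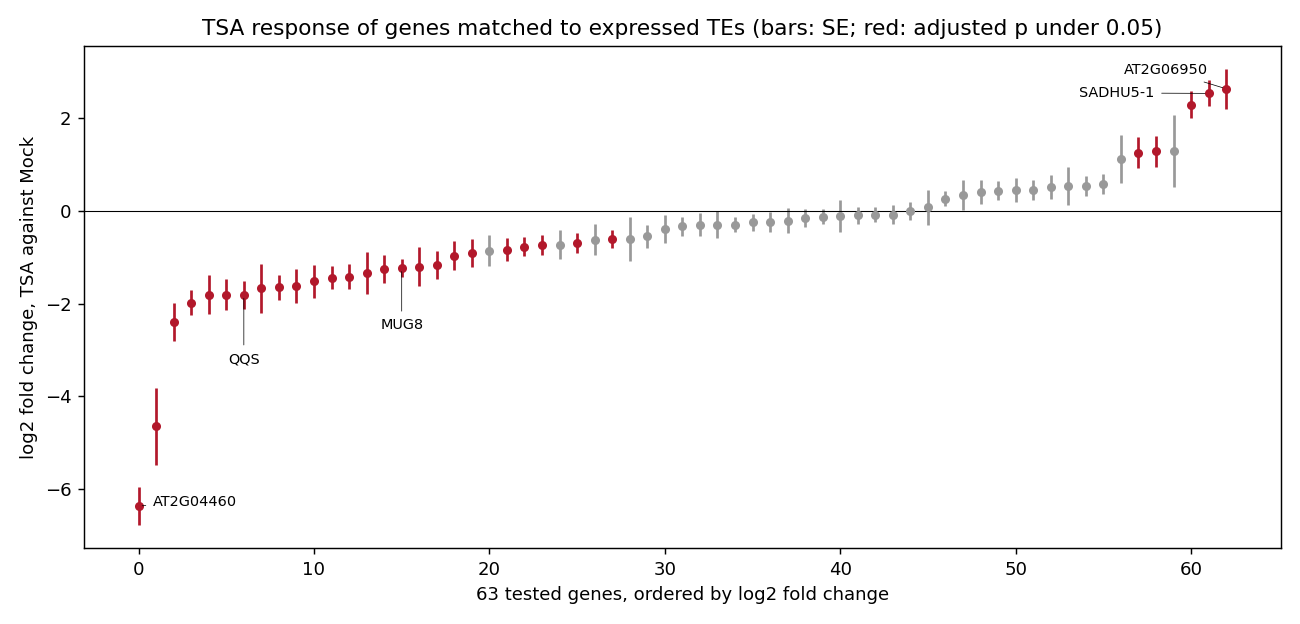
Log2 fold change with TSA (vertical axis, bars are SE) of the 63 tested genes whose counts matched an expressed TE, ordered by size, with called genes in red (edgeR adjusted p under 0.05). AT2G04460 lies lowest at -6.36 and AT2G06950 and SADHU5-1 highest at 2.63 and 2.53.

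The silencing machinery itself was read from a list of 33 genes for DNA methylation, histone modification, small RNA pathways and histone H2A.W, all tested. The gene called in the libraries labelled hda6-1 was HDA6, higher, and in hda9-1 and hda9-1 h2a.z-5 it was HDA9, lower. These are the genes the mutants are named for, and no other listed gene was called there in the main fit. Each call is 3.03% of the list, beside 3.11%, 1.75% and 5.87% of all genes in those contrasts, and says nothing of the other listed genes. In h2a.z-5 (0.901%) and the group labelled hda6-1 h2a.z-5 (6.01%) 0 were called by edgeR or by DESeq2, with 2 and 3 at an unadjusted p under 0.05. With the replicate block the counts were 1 in h2a.z-5, 3 in hda6-1, 2 in hda9-1, 5 in hda6-1 h2a.z-5 as well as 6 in hda9-1 h2a.z-5. No blocked share of all genes stands beside these counts. ROS1, a DNA demethylase gene, was at 20.4 ± 8.76 CPM in Col-0 and 10.8 ± 4.97 CPM (SD, n = 3) in the libraries labelled hda6-1 and was not called (edgeR adjusted p = 0.520).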

How the data were processed

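RNA sequencing read counts per TE and per gene were deposited by the authors as whole-number counts, not normalized, per the file headers and the values. The genome build is TAIR10, per the submitters' processing notes. The tools listed there serve the authors' ChIP-seq data, and for the RNA reads the aligner, the counter, the strand setting and the handling of reads that map to several TEs were not given in the sources used here, so copies of 1 TE family may share reads. The series' design text names nrp1-1 nrp2-2 in places where h2a.z-5 is on the labels, which were taken as right.

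TE counts of 17 genotype libraries were fitted together with edgeR 4.0.16 in R 4.3.3 (quasi-likelihood F test, two-sided, 11 residual degrees of freedom), with gene-table totals times gene-table TMM factors as library sizes. TEs were kept by filterByExpr (minimum count 10, total 15). Standard errors are the log2 change divided by the square root of F. Genes were fitted the same way, on 18 genotype libraries and, separately, on 10 Mock and TSA libraries. The 11 TE contrasts were 5 with Col-0, 4 between mutants and 2 of non-additivity. TEs and genes were matched by the mean over 17 libraries of the squared count difference over the count sum, with a limit of 0.25, where independent counts of equal mean give about 1. Scripts were tested on simulated data. Gene names and types came from a TAIR10.1 table, in which all 36632 gene identifiers were found.

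The members and lists were chosen with earlier results of these data known, and the matching limit and the TSA test of matched genes after the data were seen. Named TEs are the 5 of highest Col-0 level, the 5 steadiest, and members called with no overlap between groups: the 6 largest rises and falls against Col-0, the 4 between mutants, and the 3 smallest p for non-additivity. Some TEs picked by this rule, such as AT1TE22850 and AT2TE44710, are not described above. Others named (the SADHU, MUG, CYTOSLEEPER and neighbouring TEs, and the genes tested with TSA) were picked with their values known, and the settings in the closing section were run for TEs named by the rule.

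Whether replicate numbers pair the libraries was checked on the data. After removal of group means, the 45 same-number pairs of genotype libraries correlated at 0.164 to 0.764 over genes (38 of 40 pairs above 0.1 over TEs) and the 5 Mock and TSA pairs at 0.128 to 0.543, so the numbers were taken to pair the samples, and blocked counts are printed where they differ by over 1.5 times. Unless marked as blocked, p-values and fits without 1 library leave the pairing out. TEs named by the rule were picked from calls without the block. With the block each of those calls held, with edgeR adjusted p up to 0.0369 (AT3TE51150 in h2a.z-5). Counting intervals cover counting error only, since the reads carry no molecular identifiers. Alternatives were plain gene-table totals, TMM on the TE table, no filter, DESeq2 1.42.0, the replicate block, hda6-1 replicate 1 kept, thresholds of 10 and 100 counts, and each library left out. Shares of all TEs or genes called were taken from the main fit alone. Counts from refits thus have no background share of their own, and they are not read as more or fewer than the background.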

Additional observations from a re-analysis of the deposited data

Results flagged for a closer look

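Differences between groups that differ by h2a.z-5 were compared across labels as departures from additivity. The difference between hda6-1 h2a.z-5 and hda6-1, as labelled, departed from that between h2a.z-5 and Col-0 by -5.12 log2 units for AT2TE06955, by 3.84 for AT3TE46170 and by 3.54 for AT4TE03410. HDA6 transcript was 16.9 CPM in the former group, 128.6 CPM in hda6-1 and 16.7 CPM in Col-0, so a shared hda6-1 background cannot be assumed. For AT3TE46170 the difference between hda9-1 h2a.z-5 and hda9-1 also departed from it, by 3.84 log2 units (3.8356, beside 3.844 for hda6-1).

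Single libraries far from the other 4 of their group appeared in 8 of 60 groups of Mock or TSA libraries checked among called genes. Chance gives about 1 in 20 for independent normal values. These groups share the same libraries and hold genes chosen as called, so the 2 rates were not compared. TSA replicate 4 was far above the rest for AT1G20390 (17.3 CPM) and AT3G42806 (7.18 CPM) and far below it for AT3G43955 (4.75 CPM). Mock replicate 5 was far above the rest for AT1G35115 (33.4 CPM), AT3G44205 (2.49 CPM) and AT4G08220 (11.5 CPM). Mock replicate 3 was far above the rest for AT2G14220 (6.16 CPM), and TSA replicate 5 for AT5G35777 (0.220 CPM).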

How the results depend on the processing

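Counts of called members moved more than directions did. No named TE changed direction in the alternatives run for it. Medians over members lie near 0 and did: of 11 contrasts, 4 had a median of the other sign with plain gene-table totals and 6 with TMM over TEs, from main values of at most 0.091 log2 units. For 81 pairs of named TE and contrast, 977 values were recomputed under the alternatives, of which 861 kept the call and 116 lost it, and 54 pairs stayed called in every fit without 1 library.

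Called members, taken in the order h2a.z-5, hda6-1, hda9-1, then h2a.z-5 combined with hda6-1 and with hda9-1, numbered 23, 71, 94, 68 and 129 against Col-0 with the replicate block. It gave 39 for hda6-1 h2a.z-5 against hda6-1, 50 and 16 for hda9-1 h2a.z-5 against h2a.z-5 and hda9-1, and 6 for non-additivity with hda6-1. The block moved silencing genes to 1, 3, 2, 5 and 6 in the 5 contrasts with Col-0, and took matched genes higher with TSA from 5 to 9. It changed no other total by over 1.5 times. DESeq2 gave 16 in h2a.z-5, 53 in hda9-1 and 77 in hda9-1 h2a.z-5, 29 and 17 for the latter against h2a.z-5 and hda9-1, 2 for non-additivity with hda9-1, and 2 silencing genes in hda9-1 h2a.z-5. Without the filter there were 18 in h2a.z-5, 19 and 17 for hda9-1 h2a.z-5 against h2a.z-5 and hda9-1, and 7 and 2 for non-additivity with hda6-1 and hda9-1. Plain totals gave 11 for hda9-1 h2a.z-5 against h2a.z-5 and 2 for non-additivity with hda9-1.

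With hda6-1 replicate 1 kept, whose TE counts stop partway, there were 15 in hda9-1, 20 in hda6-1 h2a.z-5, 22 in hda9-1 h2a.z-5, 19 for hda6-1 h2a.z-5 against h2a.z-5 and 3 for hda9-1 h2a.z-5 against hda9-1. A threshold of 10 counts, which takes in more TEs, gave 59 in hda6-1, 57 in hda6-1 h2a.z-5, 49 for the latter against h2a.z-5 and 10 for hda9-1 h2a.z-5 against h2a.z-5. A threshold of 100 counts, which takes in fewer, gave 5, 10, 12, 11 and 20 against Col-0, 10 and 7 for hda6-1 h2a.z-5 against h2a.z-5 and hda6-1, and 3 and 3 for hda9-1 h2a.z-5 against h2a.z-5 and hda9-1.

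Leaving out 1 library, which for hda6-1 leaves a single library with the spread of the other groups, gave 5 to 10, 25 to 35, 4 to 16, 26 to 32 and 16 to 39 against Col-0. Between mutants it gave 22 to 31 and 12 to 17 for hda6-1 h2a.z-5 against h2a.z-5 and hda6-1, and 3 to 13 and 2 to 9 for hda9-1 h2a.z-5. Non-additivity gave 3 to 4 and 1 to 2, and matched genes with TSA 23 to 35. The cause of these shifts was not tested except where the setting itself changes the TEs or libraries. A matching limit of 0.1 gave 59 pairs, and one of 0.5 gave 75 with 18 on other chromosomes.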

Other observations

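AT3TE21700, counted almost as the pseudogene AT3G15310, was at 17.5, 18.8 and 10.997 CPM in the wild type, at 7.86, 5.10 and 4.46 CPM in h2a.z-5, and at 51.0 and 63.3 CPM in the libraries labelled hda6-1, with no overlap. In Mock, AT3G15310 was at 6.70, 3.58, 5.14 and 5.99 CPM in replicates 1 to 4 and at 0.0217 CPM in replicate 5, and TSA libraries had no count except replicate 4 (0.0913 CPM). The filter kept it out of the test.

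AT2TE12510, counted almost as the pseudogene AT2G06950, was at 37.8 to 39.5 CPM in hda9-1 and at 89.1 to 94.0 CPM in the group labelled hda6-1 h2a.z-5, against 48.0 to 70.3 CPM in Col-0. It was called in hda6-1 h2a.z-5 (log2 fold change 0.66, edgeR adjusted p = 0.0396). Among the matched genes tested, AT2G06950 had the largest fitted rise with TSA (2.63 log2 units).

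Of the 872 members, 157 had another member directly next to them in identifier order. Whether such neighbours share a transcript was not tested.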
